A study of Rattus norvegicus with 12 samples.

Results

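Expression of 10 genes of the osteoblast lineage was followed in RNA from rat joint tissue. The genes run from Runx2, which marks the earliest committed cells, through Sp7, Alpl, Ibsp, Bglap, Ifitm5, Phex, Dmp1 and Mepe to Sost, a gene of mature osteocytes. They were chosen by gene name, and all 10 were found among the 23144 genes listed in the deposited tables. The study profiled 12 libraries of total RNA in 3 groups of 4, labelled sham, model and treatment, and its title names knee osteoarthritis and a circum-knee acupuncture method. The labels used here give no strain, sex, age or time point, do not describe how the model was made or what the treatment group received, and do not say which joint structures were taken or whether replicates are separate animals. The p-values below therefore measure the spread between these libraries, which may in part be technical.

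Bone is built by osteoblasts, which descend from mesenchymal precursors under the transcription factors encoded by Runx2 and Sp7 (osterix). Maturing osteoblasts make alkaline phosphatase (Alpl), which frees phosphate for mineral, and secrete a matrix that holds bone sialoprotein (Ibsp) and osteocalcin (Bglap). Cells that become enclosed in mineral turn into osteocytes, which make the phosphate regulators PHEX, DMP1 and MEPE and finally sclerostin (Sost), a secreted inhibitor of Wnt signalling that restrains bone formation. In a joint these cells lie in the bone beneath the cartilage.

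The promoters of 8 of the 10 genes, as 9 windows from 250 bases before to 50 bases after a transcription start, were matched in RefSeq (build GRCr8). Each window was searched on both strands for ACCACA, the core of the RUNX binding motif, and 3 genes held it: Bglap, Runx2 at its first listed start, and Mepe. Of all 33469 rat promoter windows of that length, 17.3% held it. These 3 windows are shown because their genes lie at the start, the middle and the late end of the lineage. The Sost window is shown because Sost had the largest difference of the 10 genes between treatment and the other groups. Capitals mark ACCACA or, on the other strand, TGTGGT, and the windows lie at chr9:23664808-23665107 (+) for Runx2, chr2:176137269-176137568 (-) for Bglap, chr14:5736809-5737108 (-) for Mepe and chr10:87415717-87416016 (-) for Sost.
Runx2: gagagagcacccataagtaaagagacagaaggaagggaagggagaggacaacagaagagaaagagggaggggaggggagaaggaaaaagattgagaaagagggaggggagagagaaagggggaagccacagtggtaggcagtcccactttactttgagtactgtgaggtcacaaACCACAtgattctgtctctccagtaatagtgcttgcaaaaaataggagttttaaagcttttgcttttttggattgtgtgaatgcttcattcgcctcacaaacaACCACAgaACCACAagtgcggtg
Bglap: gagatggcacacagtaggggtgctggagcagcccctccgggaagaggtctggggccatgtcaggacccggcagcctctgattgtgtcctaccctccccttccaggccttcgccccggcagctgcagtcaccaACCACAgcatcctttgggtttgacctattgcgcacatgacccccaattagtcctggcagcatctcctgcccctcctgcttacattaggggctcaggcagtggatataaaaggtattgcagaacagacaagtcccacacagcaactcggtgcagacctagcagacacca
Mepe: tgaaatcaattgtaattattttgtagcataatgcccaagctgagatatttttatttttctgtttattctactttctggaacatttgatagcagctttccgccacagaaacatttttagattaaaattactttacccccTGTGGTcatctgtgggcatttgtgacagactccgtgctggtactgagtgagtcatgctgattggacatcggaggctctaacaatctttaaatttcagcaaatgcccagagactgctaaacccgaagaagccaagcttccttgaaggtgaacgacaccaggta
Sost: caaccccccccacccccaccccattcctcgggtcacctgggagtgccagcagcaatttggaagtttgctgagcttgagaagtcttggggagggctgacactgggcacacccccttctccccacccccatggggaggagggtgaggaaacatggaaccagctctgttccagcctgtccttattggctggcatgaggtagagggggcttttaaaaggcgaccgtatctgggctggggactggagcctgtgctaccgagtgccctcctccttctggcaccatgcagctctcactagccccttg
In the Bglap window the match starts 118 bases before the transcription start and is preceded by a further A, which makes the longer form AACCACA found in 5.57% of all windows. The Runx2 window holds ACCACA 76 bases before the start and again at bases 28 and 36 after it. Each of these matches is also preceded by an A, as in Bglap. The Mepe match lies 112 bases before the start on the reverse strand. GGGCGG, the box bound by SP-family factors, was searched too and stood in the windows of Alpl (4 times) and of the second listed start of Runx2, beside 33.1% of all windows. TAATTA, a homeodomain motif, stood in that of Mepe, beside 5.36% of all windows. A motif missing from a window says only that its letters are not there.

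Recovered reads summed to between 15513116 and 17218402 per library, so levels below are given as CPM (recovered reads scaled to a library total of 1000000). A library of the treatment group, treatment 1, stood apart for these genes. It held the highest treatment value of all 10 genes and lay within the range of the sham libraries for 7 of them. Treatment 2, 3 and 4 lay below every sham library for all 10. This split was seen in the values of these same genes, and its share over all genes was not worked out. Fold changes of the 10 genes in treatment are therefore given with and without treatment 1. Because treatment 1 was picked for its high values of these same genes, leaving it out must lower their treatment means. Results without it are a description only and add no support for a fall. The 10 genes together summed to 816 to 1773 CPM in sham and 351 to 2072 in model. In treatment they summed to 2383 in treatment 1, of which Ibsp alone made up 1372, 91.0 in treatment 2, 276 in treatment 3 and 82.8 in treatment 4. In RNA of whole tissue, fewer cells of a type and less RNA per cell cannot be told apart.

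In sham joints all 10 genes were read in every library. On a per-length scale (RPKM, the CPM per kilobase of gene length), Bglap stood highest at 1091 ± 459 (SD, n = 4). Ibsp followed at 123.1 ± 26.0, Alpl at 72.3 ± 15.7, Dmp1 at 68.4 ± 20.4, Mepe at 52.9 ± 19.1 and Sost at 38.9 ± 19.7. Lowest were Ifitm5 at 11.2 ± 1.61, Runx2 at 7.74 ± 0.904, Sp7 at 7.32 ± 2.41 and Phex at 6.62 ± 2.78. The transcription factors stood far below the matrix genes. Neighbours from Alpl to Sost, and Runx2, Sp7 and Phex among themselves, differed by less than their SD. The order in model was the same apart from the pairs Mepe and Sost, and Sp7 and Phex, which changed places. In treatment, Sost moved from sixth to eighth, at 3.84 ± 6.44, below Runx2 at 5.19 ± 3.36.

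**Figure D1:**
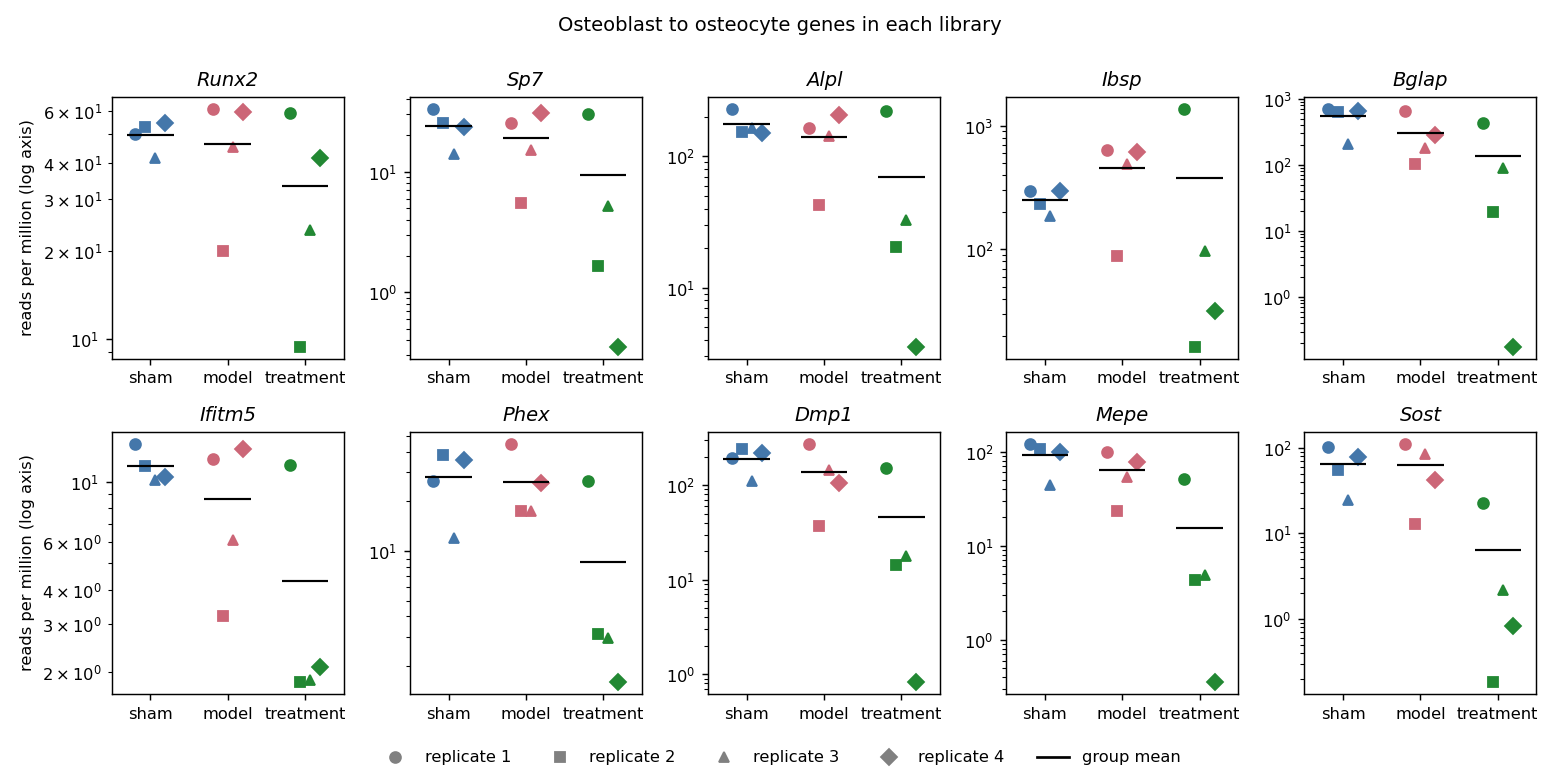
CPM (log axis) of each of the 10 genes in the 12 libraries, by group, with the replicate number as the point shape and the group mean as a bar. In treatment the circle (treatment 1) lies near the sham points for most genes. The other 3 points lie below all 4 sham points in every panel, a split picked from these same values.

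Runx2 encodes the master transcription factor of the lineage and had the smallest coefficient of variation of the 10 in each group, at 11.7%, 41.1% and 64.8% in sham, model and treatment. It is ENSRNOG00000020193 in the deposited tables, at chr9:16167482-16492167 on the plus strand (mRatBN7.2). It measured 49.98, 53.1, 41.6 and 54.6 CPM in sham 1 to 4. Model libraries held 61.2, 19.9, 45.1 and 59.6 in the same order, and treatment libraries held 59.3, 9.40, 23.5 and 41.4. The groups overlapped, with treatment 2 lowest of all 12 and treatment 4 only just below the lowest sham library. The gene overlaps Supt3h on the opposite strand, and since the use of strand is not given in the sources used here, reads of the pair cannot be told apart. Supt3h itself held 6.29 to 8.28 CPM in every library, up to 80.5% as many reads as Runx2, in treatment 2. Sp7, the factor that acts downstream of Runx2, spread from 14.1 to 33.4 in sham and from 5.46 to 30.9 in model. In treatment it was 30.2 in treatment 1 and 1.65, 5.17 and 0.355 in the others, so treatment 4 held Runx2 at 41.4 with Sp7 close to absent.

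Alkaline phosphatase RNA (Alpl) spread from 152 to 232 CPM in sham and from 42.9 to 209 in model. Treatment 1 held 222 and the other treatment libraries 20.3, 32.5 and 3.55. Ibsp, the sialoprotein that seeds mineral, measured 296, 232, 187 and 296 in sham. It reached 631, 88.4, 489 and 614 in model, and 1372, 16.4, 97.5 and 31.6 in treatment. So 3 of 4 model libraries lay above every sham library and 1 below, while treatment held both the highest and the 2 lowest of all 12. Bglap (ENSRNOG00000019607, chr2:173838518-173839495, minus strand), the most abundant of the 10 genes in sham, measured 708, 621, 207 and 655 in sham. It measured 650, 101.1, 182 and 286 in model, and 435, 19.6, 87.8 and 0.178 in treatment, the last from 3 reads. Model 2 and 3 lay below every sham library, and in treatment 4 Bglap was close to absent. Ifitm5 (ENSRNOG00000014923, chr1:196045666-196047232, minus strand), a membrane protein of mineralising osteoblasts, held 13.8, 11.4, 10.2 and 10.4 in sham, 12.1, 3.19, 6.12 and 13.1 in model, and 11.5, 1.83, 1.86 and 2.07 in treatment. Here treatment 2 to 4 lay close together and far below treatment 1.

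Among the osteocyte genes, Phex (a surface peptidase whose loss causes phosphate wasting) spread from 12.04 to 38.5 CPM in sham and from 17.4 to 44.7 in model. It was 26.7 in treatment 1 and 3.11, 2.96 and 1.60 in the others. Dmp1, a mineral-binding matrix protein, measured 191, 241, 111 and 219 in sham, 272, 36.6, 143 and 104 in model, and 153, 14.2, 17.7 and 0.828 in treatment. Mepe, an acidic phosphoglycoprotein of the same family, measured 120, 105, 44.2 and 99.4 in sham, 99.1, 23.2, 54.3 and 77.4 in model, and 51.5, 4.27, 4.88 and 0.355 in treatment. In both genes treatment 1 lay within the sham range and the other 3 treatment libraries lay below all sham and model libraries. Sost (ENSRNOG00000071073, chr10:86911517-86915561, minus strand) measured 102, 54.6, 24.8 and 78.6 in sham, 111, 13.0, 83.8 and 41.8 in model, and 22.5, 0.183, 2.15 and 0.828 in treatment, where 0.183 stands for 3 reads. It was the only one of the 10 genes for which treatment 1 (22.5) also lay below the lowest sham library (24.8), although model 2 was lower. In the authors' size-factor values treatment 1 lay just above sham 3 for Sost, and there the groups overlapped for all 10 genes in all 3 comparisons. With every library of each group kept, the first group lay wholly below the second for 4.77% of all genes tested in model against sham. The share was 13.7% in treatment against model and 19.8% in treatment against sham. The lowest library of its group was sham 3 for 9 of the 10 genes and model 2 for 9 of the 10.

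Comparing model with sham asks what the disease model itself did to these genes. None of the 10 changed by the test. Of the 10 fold changes, 9 pointed down and 1 pointed up. The largest was that of Bglap, with a log2 fold change of -1.02 ± 0.584 (SE of the limma fit) and an adjusted p of 0.466. Its group means were 548 ± 230 CPM in sham and 305 ± 242 in model (SD, n = 4). Ibsp was the gene that pointed up, with a log2 fold change of 0.55 ± 0.572 and an adjusted p of 0.679, and means of 253 ± 53.3 and 456 ± 253. Sost had means of 64.9 ± 32.9 and 62.4 ± 43.5 and a log2 fold change of -0.26 ± 0.674. Over the 10 genes the median log2 fold change was -0.51, beside 0.03 over all genes tested. Without model 2, the lowest model library for 9 of the 10 genes, this median was -0.01, beside 0.04 over all genes. In this comparison limma called 0% of the 20205 genes tested at an adjusted p of 0.05, with 2618 at an unadjusted p under 0.05. edgeR called 0 and DESeq2 called 604 (2.97% of genes tested), with 0 of these 10 among them.

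Comparing treatment with model asks what differed after the treatment. Sost fell, with means of 62.4 ± 43.5 CPM in model and 6.41 ± 10.8 in treatment, a log2 fold change of -4.56 ± 1.29 and an adjusted p of 0.0479 in limma. All 10 fold changes pointed down and none of the other 9 genes passed the test. Among those were Mepe at -3.43 ± 1.26 (adjusted p = 0.102), Phex at -2.27 ± 0.804 (adjusted p = 0.0930), Dmp1 at -2.86 ± 1.38 and Bglap at -3.39 ± 2.01. Runx2 had the smallest difference, at -0.49 ± 0.563. The median over the 10 genes was -2.20, beside 0.02 over all genes, and 1 of 10 called lower compares with 10.5% of the 20328 genes tested called lower (14.1% in either direction). Without treatment 1, picked for its high values of these genes, the test called Phex, Mepe and Sost lower, 3 of 10. Over all genes, which were not picked in this way, 7.43% were called lower. The log2 fold changes without treatment 1 ran from -0.87 for Runx2 to -5.78 for Sost. The Sost call was lost with edgeR (adjusted p = 0.138), with a pseudocount of 0.25 (0.052) and when any 1 of model 1, 3 and 4 or treatment 2, 3 and 4 was left out (0.082 to 0.117).

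Comparing treatment with sham sets the treated joints against those of the control group. Sost, Mepe and Ifitm5 fell, and again all 10 fold changes pointed down. Sost had a log2 fold change of -4.84 ± 1.27 (adjusted p = 0.0188 in limma), with means of 64.9 ± 32.9 in sham and 6.41 ± 10.8 CPM in treatment. Mepe had a log2 fold change of -4.07 ± 1.32 (adjusted p = 0.0450), with means of 92.4 ± 33.3 and 15.3 ± 24.3. Ifitm5 had one of -1.75 ± 0.557 (adjusted p = 0.0350), with means of 11.5 ± 1.65 and 4.31 ± 4.79. The others included Phex at -2.36 ± 0.836 (adjusted p = 0.0560), Dmp1 at -3.60 ± 1.41 (0.0837), Bglap at -4.43 ± 2.14 (0.148) and Runx2 at -0.72 ± 0.481 (0.283). Ibsp had a log2 fold change of -1.29 ± 1.27, yet its mean in CPM was higher in treatment (379 ± 663) than in sham (253 ± 53.3), with treatment 1 holding 90.4% of the group's summed level. edgeR and DESeq2, which compare mean counts, gave Ibsp 0.76 in each case. The 3 of 10 called lower compare with 19.5% of 20352 genes called lower (36.8% in either direction), and the median of -2.60 with -0.01 over all genes. Without treatment 1, picked for its high values of these genes, 8 of the 10 were called lower. Over all genes, which were not picked in this way, 17.6% were called lower. The exceptions among the 10 were Runx2 (adjusted p = 0.073 in limma) and Bglap (0.053). The log2 fold changes then ran from -1.10 for Runx2 to -6.07 for Sost, with Ifitm5 at -2.39 and Mepe at -5.24. The Ifitm5 and Mepe calls were lost with edgeR and DESeq2 (which gave Ifitm5 no adjusted p) and when any 1 sham library, or treatment 2 or 3, was left out. Ifitm5 was also lost without treatment 4 and Mepe with no filter on low values, and the Sost call was lost with edgeR (0.083) and without treatment 4 (0.059). Treatment against model and treatment against sham share the 4 treatment libraries.

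**Figure D2:**
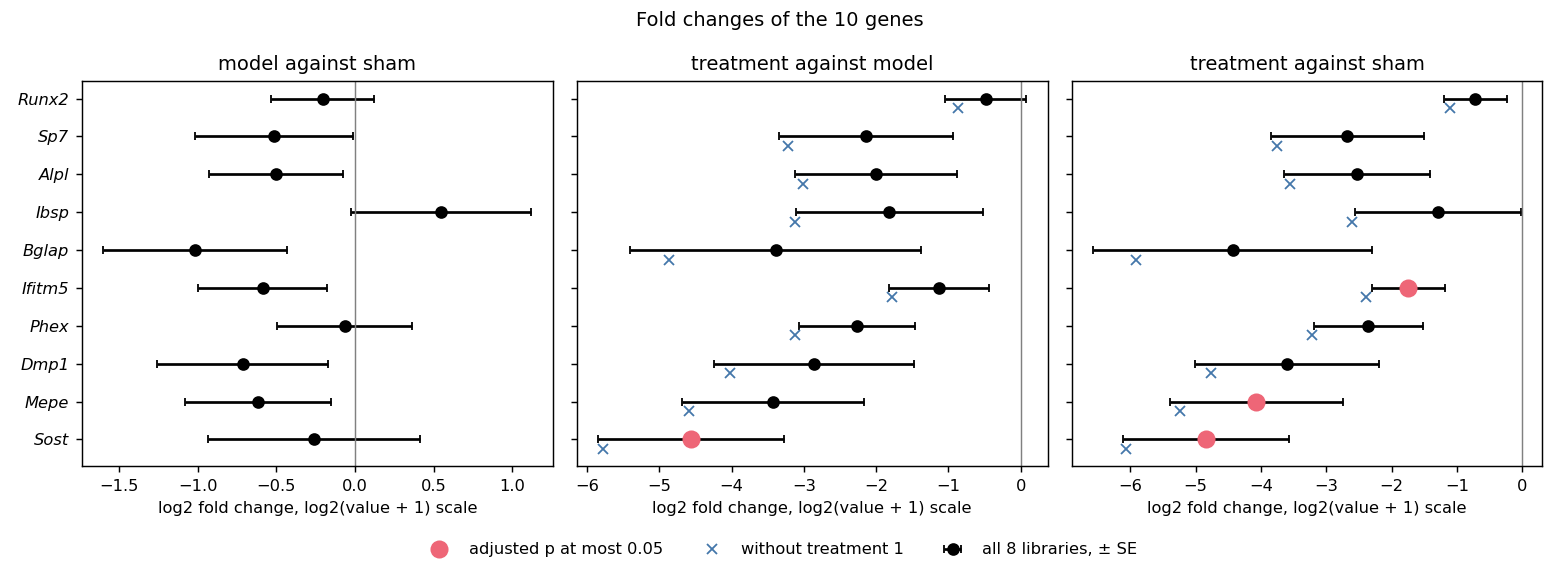
Log2 fold changes of the 10 genes in the 3 comparisons, on the log2(value + 1) scale, as points with the SE of the limma fit over all 8 libraries of a comparison, red where the adjusted p was at most 0.05, and as crosses without treatment 1 (the model against sham panel has none). Sost is red in both treatment comparisons, Mepe and Ifitm5 only against sham. Every cross lies to the left of its point, as it must, since treatment 1 was the highest treatment library for all 10 genes.

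The later genes were also set against Runx2 within each library. Reads of Sp7 per read of Runx2 were 0.339 to 0.669 in sham and 0.274 to 0.519 in model. They were 0.509, 0.175, 0.220 and 0.00857 in treatment 1 to 4. For Bglap the ratio was 14.2, 11.7, 4.97 and 12.01 in sham, 10.6, 5.07, 4.03 and 4.80 in model, and 7.34, 2.08, 3.73 and 0.00429 in treatment. Sost per read of Runx2 was 0.596 to 2.03 in sham, 0.649 to 1.86 in model, and 0.380, 0.0195, 0.0914 and 0.0200 in treatment, so all 4 treatment libraries lay below all sham and model libraries. Mepe showed the same separation, with 1.06 to 2.41 in sham, 1.16 to 1.62 in model and 0.869, 0.455, 0.207 and 0.00857 in treatment. Ibsp per read of Runx2 was 4.37 to 5.93 in sham, 10.3, 10.9 and 10.3 in model 1, 3 and 4 against 4.43 in model 2, and 23.2, 1.75, 4.14 and 0.763 in treatment. The ratios of Sp7, Alpl, Ibsp, Bglap and Dmp1 to Runx2 overlapped between treatment and the other groups. How many of all genes separate in such a ratio was not worked out. These ratios were looked at after the values had been seen and have no test of their own.

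**Figure D3:**
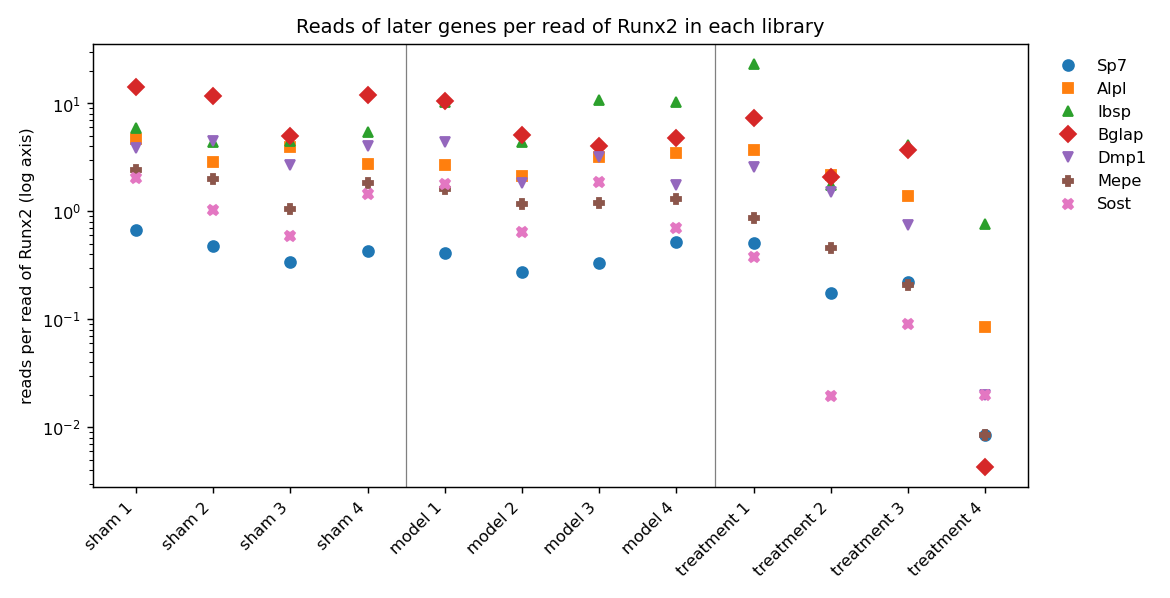
Reads of 7 later genes per read of Runx2 (log axis) in each of the 12 libraries. In treatment 4 the ratios of all 7 genes lie below those of the sham libraries, with Bglap at 0.00429, and in treatment 1 Ibsp stands highest at 23.2.

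The balance between the matrix genes Ibsp and Bglap varied as well. Ibsp reads per Bglap read were 0.419, 0.374, 0.904 and 0.451 in sham. They were 0.970, 0.874, 2.69 and 2.15 in model, where only model 2 lay within the sham range. Treatment held 3.16, 0.838, 1.11 and, with Bglap at 3 reads, 178. Sost and Dmp1, both osteocyte genes, stood at 0.223 to 0.531 Sost reads per Dmp1 read in sham and 0.353 to 0.586 in model. Treatment 1, 2 and 3 lay below all of these at 0.147, 0.0129 and 0.122, and treatment 4 held 14 reads of each gene.

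Ibsp, Mepe and Dmp1 lie next to each other on chromosome 14 (mRatBN7.2), in a cluster of acidic matrix phosphoprotein genes that also holds Spp1 (osteopontin). Mepe spans chr14:5420635-5432183, Ibsp chr14:5439829-5452693 and Dmp1 chr14:5528431-5539323, all on the minus strand, and Spp1 lies at chr14:5308885-5315162. Spp1, which osteoblasts, osteoclasts and macrophages make, is named as their neighbour. It measured 1118, 1023, 654 and 913 CPM in sham and 1405, 282, 538 and 811 in model. In treatment it measured 1253, 58.9, 898 and 3195. Treatment 4 thus had the highest Spp1 of all 12 libraries and the lowest Mepe and Dmp1.

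Likeness of pattern was measured as Pearson's r of log2 CPM over the 12 libraries after each group's mean was taken off, across 13170 genes, as a description only. Library depth and tissue make-up are shared by all points. The treatment libraries weigh most in r, since their spread was widest. For Dmp1 the highest library held 185 times the lowest in treatment, beside 2.17 times in sham and 7.43 times in model. Dmp1 was most like Mepe (r = 0.9796), Bglap (0.957) and Alpl (0.947), followed by the globin genes Hba-a3 (0.941) and Hba-a1 (0.937). Sost was most like Rab26 (0.963), B4galnt3 (0.960), Ccdc194 (0.957), Dkk1 (0.955), another secreted Wnt inhibitor, and Ibsp (0.954). Runx2 was most like Tnfsf11 (0.976), which encodes the osteoclast-inducing ligand RANKL, then Slc39a8 (0.970), Cadm1 (0.966), Plk5 (0.959) and Mmp9 (0.955), a protease abundant in osteoclasts. The 9 pairs of Runx2 with the other genes had r from 0.178 (with Bglap) to 0.805 (with Sost), with a median of 0.493. The 36 pairs among the other 9 genes had r from 0.589 to 0.9796, with a median of 0.821.

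Other bone genes, on lists apart from the 10, included many that rose. Over all genes tested, 17.3% were called higher against sham and 3.6% against model. Of the other osteoblast regulators reported here, 3 rose in treatment against sham. Lrp6, a Wnt co-receptor, had a log2 fold change of 1.38 ± 0.246 (adjusted p = 0.00224 in limma), and Twist1 and Msx2, factors of skeletal precursors, had 1.30 and 2.35. Of 10 general bone matrix genes, 5 rose and 0 fell, among them Smoc2 at 3.62 ± 0.475 (adjusted p = 0.000519), Postn (periostin) at 3.52 ± 0.551 and Serpinf1 at 1.76 ± 0.366. Against model, 3 of these 10 rose (Serpinf1, Smoc2 and Postn, at 1.498, 2.57 and 2.81) and 0 fell. Median log2 fold changes of the matrix list were positive in both treatment comparisons, at 1.05 against model. These matrix genes are also made by fibroblasts.

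Genes of mineral and phosphate handling split. Of 10 tested in treatment against sham, 6 rose and 1 fell. Mgp, an inhibitor of calcification, rose by 3.11 ± 0.307 on the log2 scale (adjusted p = 9.26e-05 in limma), Enpp1, which makes the mineral inhibitor pyrophosphate, by 1.995 ± 0.363 and Ankh, which carries pyrophosphate out of the cell, by 1.29 ± 0.257. Fgf23, the phosphate-regulating hormone of osteocytes, fell by 3.501 (adjusted p = 0.00469). It held no read in treatment 1, where Dmp1 and Mepe were within their sham ranges. Treatment 2, 3 and 4 held 0.122, 0.465 and 0.533 CPM of Fgf23. Sham libraries held 2.34, 2.815, 4.83 and 2.225, and model libraries were already lower at 1.03, 0.0614, 0.125 and 0.737. Its log2 fold change in treatment against model was -0.53 ± 0.970 (adjusted p = 0.750 in limma). Against model, Ankh (1.08 ± 0.260) and Mgp (1.82 ± 0.467) rose among 9 tested and 0 fell. In model against sham 0 of the list changed in limma, with 1 called lower and 2 higher by DESeq2, the smallest p in limma being that of Fgf23 at -2.97 ± 0.712 (adjusted p = 0.221).

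The list of other osteocyte genes held 11 tested genes, of which 6 rose and 0 fell in treatment against sham and 3 rose and 0 fell against model. Those that rose were led by Pdpn, a membrane protein of early osteocytes and also of fibroblasts and synovium, at 3.29 ± 0.416 (adjusted p = 0.000400 in limma), Mmp14, a collagen-cleaving protease, at 2.67 ± 0.449 and Fbln7, a matrix glycoprotein, at 3.12 ± 0.642. Dkk1 had a log2 fold change of -2.99 and did not pass the test (adjusted p = 0.071). As Pdpn shows, the list is not confined to osteocytes, and 8 of 10 fibroblast and tendon markers also rose against sham. Which cells gave the rises was not tested. A further list held 6 genes tied to sclerostin or to Wnt signalling (Lrp4, Sostdc1, Wif1, Axin2, Lef1 and Mef2c). In it Lrp4, which anchors sclerostin at the cell surface, fell by 2.26 ± 0.340 against sham (adjusted p = 0.000919 in limma). Lef1, a Wnt effector, fell by 2.69 ± 0.547. The Wnt co-receptor Lrp6, on the regulator list, rose in the same comparison, as given above. Against model neither Lrp4 (-1.52 ± 0.489) nor Lef1 (-1.89 ± 0.599) passed. Without treatment 1, the matrix, mineral and other osteocyte lists held 1, 2 and 1 genes that fell against sham. In the same comparison without treatment 1, 4, 5 and 5 genes of those lists rose. Against model, the counts of mineral and other osteocyte genes that rose (2 and 3) were both 0 without model 4, without treatment 1 and without treatment 3.

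Markers of other cell types moved with the groups as well, and their part in the results above was not tested. Over the 10 erythroid markers the summed level was 35070 to 55900 CPM in sham, 44330 to 71320 in model and 319 to 4218 in treatment, and 10 of 10 fell in both treatment comparisons. Over the 10 neutrophil markers it was 14090 to 23610, 3774 to 13930 and 7.10 to 203, and 9 of 10 fell in both. In treatment 4 the markers Elane, Cd177 and Rhag were at 0, and the neutrophil marker that did not pass, Ltf, was at most 0.539 CPM in any library. Smallest in p against sham were Trim10 (-6.01), Klf1 (-6.21) and Epb42 (-6.72) for the erythroid list and Cxcr2 (-6.38), S100a8 (-8.97) and Cd177 (-10.7) for the neutrophil list. These are genes of blood and marrow. In treatment 1, 7 of the 10 bone genes lay within their sham ranges, and Ibsp lay far above its own. The erythroid sum there was 4218 and the neutrophil sum 43.7, so both were far below every sham and model library there too. Osteoclast markers summed to 2678 to 3438 in sham, 979 to 4109 in model and 319 to 2748 in treatment, with treatment 4 at 2397. Of 12 osteoclast genes, 2 fell against sham, which is not above the 19.5% of all genes called lower. They were Car2 (-5.19 ± 0.268), an enzyme that red cells hold too, and Itgb3 (-3.02 ± 0.379), an integrin also of platelets.

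Chondrocyte markers summed to 1356 to 2897 CPM in sham, 1538 to 3963 in model and 1681 to 20900 in treatment. Treatment 1 held the highest sum, 20900. Comp, Sox9 and Acan rose against sham among 14 chondrocyte genes, 3 of 14 beside 17.3% of all genes called higher, a share near the background, and 1 to 5 with 1 library left out. Fibroblast and tendon markers summed to 910 to 3186 in sham, 1323 to 8302 in model and 6519 to 15330 in treatment, and 8 of 10 rose against sham (led by Lum at 3.21, Pdgfra at 2.31 and Thbs4 at 2.29) and 4 of 10 against model. Adipocyte markers summed to 428 to 2561, 406 to 2452 and 82.0 to 241, and 6 of 7 fell against sham, led by Retn at -4.06, Cidec at -2.90 and Plin1 at -2.80 (1 to 6 with 1 library left out). Skeletal muscle markers, which varied within every group, summed to 1327 to 27010 in sham, 54.3 to 807 in model and 106 to 41980 in treatment, the last in treatment 2. Every model sum lay below every sham sum, and the median log2 fold change of the 8 genes in model against sham was -6.69, beside 0.03 over all genes. With all libraries, 0 of 8 passed limma in any comparison, and the smallest p in model against sham was that of Myh4 (-8.08 ± 1.30, adjusted p = 0.203) and Atp2a1 (-7.58 ± 1.24). In treatment against sham it was that of Myh4 (-4.35 ± 2.79) and Ckm (-4.33 ± 2.79). For model against sham DESeq2 called 6 of 8 lower, and limma called 6 without model 1 and 4 without sham 3. Without sham 2, sham 4 and treatment 2, the most muscle-rich libraries, 0 of the 10 bone genes were called in any comparison. Of all genes, 9.21% were then called lower in treatment against model and 12.9% in treatment against sham. The Sost log2 fold change in treatment stayed negative against both groups. Against model this run leaves out treatment 2 only. Against sham it leaves out all 3 libraries, so few sham libraries remain.

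**Figure D4:**
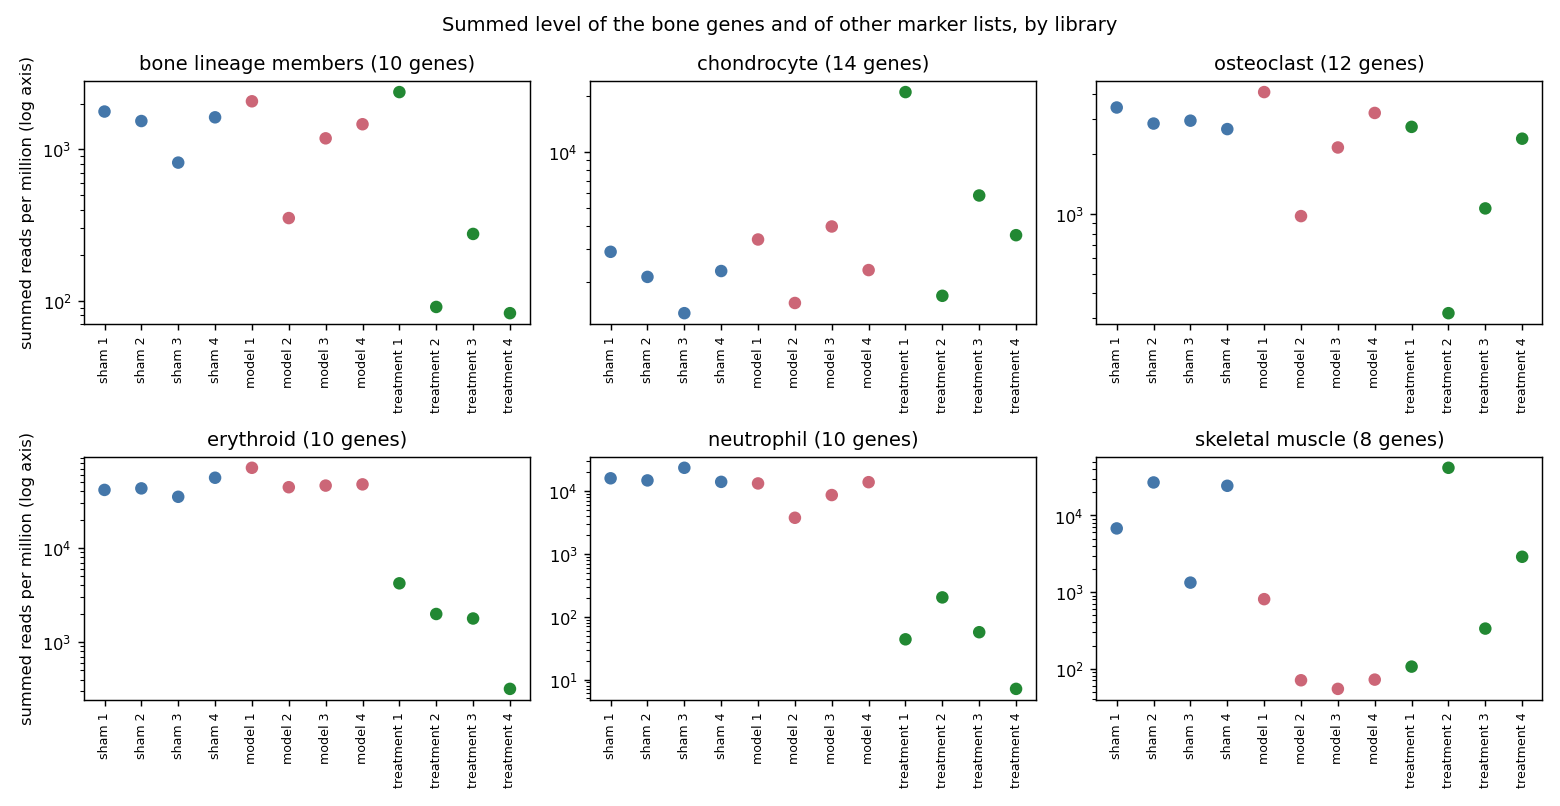
Summed CPM (log axis) of the 10 bone genes and of 5 marker lists in each of the 12 libraries. Erythroid and neutrophil sums are low in all 4 treatment libraries, whereas the bone gene sum is low in treatment 2, 3 and 4 and the chondrocyte sum is highest in treatment 1.

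In the authors' deposited table of changed genes, Sost was the only one of the 10. The authors' deposited table gives it a log2 fold change of -3.12 with an adjusted p of 0.0296 for treatment against model, and -3.16 with 0.0331 for treatment against sham. The authors' deposited table of changed genes lists none of the 10 for model against sham. The authors' deposited table of all genes holds no p for Ibsp in either treatment comparison. It also holds none for Bglap, Alpl, Mepe and Ifitm5 in treatment against sham.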

How the data were processed

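RNA of 12 rat joint libraries (4 sham, 4 model, 4 treatment) was extracted with Trizol and made into libraries (VAHTS Universal V5) per the labels' protocols. The submitters' processing notes name fastp, DESeq2 (versions not given) and the build mRatBN7.2. Aligner, counter, annotation and strand setting: not given in the sources used here. The labels name no batch. The authors deposited 3 tables of 8 libraries with a normalised signal, in which counts are divided by 1 size factor per library and table. The authors' log2 fold changes and p-values in the deposited tables were used only where named. Every sample column was matched to a sample.

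Whole reads were recovered from the steps of the values (100% whole at a tolerance of 0.001 reads), with treatment 3 read from the treatment against sham table. The main test was limma 3.58.1 (R 4.3.3, trend and robust) on log2(value + 1) within each table, leaving out genes whose mean was under 1, with Benjamini-Hochberg adjustment over all genes and calls at 0.05. The planned design assumed counts, and normalised values led to limma instead. edgeR 4.0.16 and DESeq2 1.42.0 on the recovered reads were alternatives, beside other pseudocounts, filters and scaling, a replicate block and each library left out. Leaving out the muscle-rich libraries was chosen after seeing the data. Fold changes of low genes are understated on the log2(value + 1) scale. The script was checked on simulated data.

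The 10 genes and the 12 other lists were chosen with earlier results of these data known. The rule for named genes took from each other list and comparison the genes past the test where these were 3 or fewer, otherwise the 3 with the smallest p (2 where none passed), and the 5 most alike genes for Runx2, Dmp1 and Sost. The text prints its genes mainly for treatment against sham, and not all of those it gave for the other comparisons; Spp1 is named as a neighbour. Fgf23, Dkk1 and Itgb3 outside that rule, and the ratios, were chosen after their values were seen. A gene of the regulator list is not reported here. List members not matched by symbol were Dspp, Destn, Myh1 and Mylpf. Levels rest on totals of 15513116 to 17218402 reads per library, and values from 3 reads carry a large counting error.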

Additional observations from a re-analysis of the deposited data

Results flagged for a closer look

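Of 30 groups of 4 (10 genes in 3 groups), 9 held a library whose gap to its nearest neighbour, over the group's range, was above Dixon's 95% critical value for 4 samples. Chance flags about 1 in 20 groups. In 8 of the 9 the library was treatment 1, the highest of its group. Its values, in CPM, were 30.2 for Sp7, 222 for Alpl, 1372 for Ibsp, 11.5 for Ifitm5, 26.7 for Phex, 153 for Dmp1, 51.5 for Mepe and 22.5 for Sost, with gaps of 0.831 to 0.975 of the range across the 9. The ninth was sham 1 for Alpl, at 232 CPM. Runx2 and Bglap in treatment were not among them. The 10 genes share their library, so these are not independent flags.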

How the results depend on the processing

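No gene of the 10 was called higher in any comparison under any alternative run. In treatment against model, the runs without the muscle-rich libraries and without treatment 2 are the same fit, counted as separate alternatives. Of the 170 gene values per comparison (10 genes under 17 alternatives), 163, 158 and 138 kept direction and side of the threshold for model against sham, for treatment against model and for treatment against sham respectively. Of the first, 7 changed sign. Phex ranged from -0.44 to 0.14 with 1 library left out (0.14 without sham 2, 0.11 without sham 4, 0.08 without model 2 and 0.09 without model 3) and was 0.50 without the muscle-rich libraries. With 1 library left out, Runx2 ranged from -0.38 to 0.15 and Sost from -0.67 to 0.35, the highest value without model 2 in both. In treatment against sham, Ibsp was 0.76 with edgeR and 0.76 with DESeq2. The cause of these was not tested.

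Genes called in model against sham were 604 with DESeq2 and 0 to 171 with 1 library left out (171 without model 1, 33 without sham 3). In treatment against model they were 4965 with DESeq2 and 1178 to 4146 with 1 library left out, beside 2870. In treatment against sham they were 4603 without the muscle-rich libraries and 5924 to 7826 with 1 library left out, beside 7485. Bone genes called lower in treatment against model were 0 with a pseudocount of 0.25, 0 with edgeR, 2 with the replicate block (Phex and Sost), 0 without the muscle-rich libraries and 0 to 3 with 1 library left out. In treatment against sham they were 0 with edgeR, 1 with DESeq2, 0 without the muscle-rich libraries and 1 to 8 with 1 library left out, the 8 without treatment 1. The median of the 10 genes in treatment against sham was -1.39 with edgeR, beside -2.60 in limma.

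No pairing by replicate number was evident, with correlations of same-numbered deviations from -0.56 to 0.34. The labels do not say whether the numbers pair samples, and these correlations cannot decide it. With the replicate block 0, 2204 and 6771 genes were called. Scaling by library totals moved the median of all genes to -0.14 in treatment against model and -0.15 in treatment against sham, and lower calls from 74.5% to 89.0% and from 52.9% to 62.2% of calls.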
